A study of Mus musculus with 9 samples.

Results

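The ADAM genes, named after a disintegrin and metalloprotease domain, were followed in germ-cell libraries of mice that lacked 1 of 2 mitochondrial genes. The members were the protein-coding rows of the gene table whose symbol is Adam, a number and at most 1 further letter, which gave 33 of 22046 protein-coding rows and 54532 rows in all. From textbook knowledge, 20 of the 33 are testis genes, 12 are widely expressed and 1, Adam7, is an epididymal gene. RNA was sequenced in 9 libraries of male germ cells at postnatal day 35, titled spermatocytes, in 3 groups of 3. In the ClpX cKO group Clpx was deleted, and in the ClpP cKO group Clpp was deleted, each by Stra8-Cre, a recombinase under a germ-cell promoter. The Control group has the genotype WT, and the labels do not say whether these animals carried Cre or floxed alleles. ClpX is the ATPase that feeds unfolded proteins to ClpP, a protease of the mitochondrial matrix. Nothing in the labels says how the cells were isolated or whether the replicates were separate animals, so the p-values speak only of the scatter among these 9 libraries, which may be technical.

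ADAM proteins are made as precursors with a prodomain that keeps the metalloprotease domain inactive until it is removed. The widely expressed proteases cut other membrane proteins close to the cell surface, a step called shedding, and several need partner proteins such as iRhoms or tetraspanins to reach the surface. Testis ADAM proteins are made in germ cells, and several are processed on the way to mature sperm. Several of them stay on the sperm surface as complexes that matter for sperm migration in the female tract and for binding to the egg coat.

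A gene's level is given as FPKM, its fragments relative to gene length and library size, as deposited. A change is the difference of mean log2(FPKM + 1), and calls were made in limma where the Benjamini-Hochberg adjusted p, over all 17266 genes with a mean of at least 1 FPKM, was under 0.05. The libraries held 14334436 to 17021685 gene reads. Clpx was at 15.6, 11.3 and 13.2 FPKM in ClpX cKO, at 40.3, 36.2 and 36.0 FPKM in ClpP cKO and at 59.3, 55.7 and 54.7 FPKM in Control. Clpp was at 12.8, 12.5 and 14.1 FPKM in ClpX cKO, at 5.16, 6.15 and 3.69 FPKM in ClpP cKO and at 9.36, 8.46 and 9.36 FPKM in Control, so the ClpP cKO libraries kept Clpp reads. The label names spermatocytes, but markers of other stages and cells were present in every library. Summed FPKM of 8 elongating spermatid markers was 1561 to 2404 in ClpX cKO, 4421 to 5294 in ClpP cKO and 7670 to 17065 in Control, and that of 8 Sertoli cell markers was 539 to 716 in ClpX cKO, 427 to 451 in ClpP cKO and 292 to 306 in Control. Control 3 and ClpX cKO 1 stood apart within their groups, and counts of testis members called lower are given with and without them. Values of marker genes and of other genes read beside the members include both libraries, except that Rnase10 is also given without Control 3. In such bulk samples, fewer cells of a type and less RNA per cell cannot be told apart.

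The family divides by gene structure as well as by tissue. All 12 widely expressed members have between 16 and 30 coding exons, whereas 15 of the 20 testis members have 1 coding exon. The 5 testis members with many coding exons, from 19 to 22, are Adam2, Adam3, Adam5, Adam18 and Adam32. The codons of the zinc-binding site of an active metalloprotease are present in 9 of 12 widely expressed members and in 11 of 20 testis members, and in none of these 5. The site is shown for 3 widely expressed proteases and for 4 testis members that have it, because it marks which products could be active enzymes. Capitals mark the codons of the 3 histidines, the glutamate and the glycine, on the coding strand of GENCODE M21 (GRCm38).
Adam10: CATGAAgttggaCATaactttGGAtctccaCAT
Adam9: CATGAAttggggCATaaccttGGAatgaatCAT
Adam17: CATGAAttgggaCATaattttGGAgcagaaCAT
Adam24: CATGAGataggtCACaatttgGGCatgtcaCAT
Adam20: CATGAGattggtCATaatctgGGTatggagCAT
Adam39: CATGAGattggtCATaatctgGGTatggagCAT
Adam21: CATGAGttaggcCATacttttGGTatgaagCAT
These lie in the coding sequences of Adam10 (ENSMUSG00000054693, chr9:70678997-70780229, plus strand), Adam9 (ENSMUSG00000031555, chr8:24949611-25016927, minus strand) and Adam17 (ENSMUSG00000052593, chr12:21323509-21373632, minus strand). The testis genes are Adam24 (ENSMUSG00000046723, chr8:40675077-40682199, plus strand), Adam20 (ENSMUSG00000046282, chr8:40793273-40797303, plus strand), Adam39 (ENSMUSG00000054033, chr8:40822990-40827037, plus strand) and Adam21 (ENSMUSG00000008438, chr12:81558584-81568474, minus strand). The stretch has 33 bases in each gene, and Adam20 and Adam39 have the same 33 bases.

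The promoter windows differed in their CG content, which is given as a description. Windows of 300 bases from RefSeq (GRCm38.p6) were at hand for 10 testis members with 1 window each and for 7 widely expressed members with 9 windows. The median number of CG pairs in a window was 1 in testis members and 19 in widely expressed members, against 7 over all 32851 windows. Shown with CG in capitals are 2 testis members that fell in both knockouts and 2 widely expressed members that rose in both.
Adam21: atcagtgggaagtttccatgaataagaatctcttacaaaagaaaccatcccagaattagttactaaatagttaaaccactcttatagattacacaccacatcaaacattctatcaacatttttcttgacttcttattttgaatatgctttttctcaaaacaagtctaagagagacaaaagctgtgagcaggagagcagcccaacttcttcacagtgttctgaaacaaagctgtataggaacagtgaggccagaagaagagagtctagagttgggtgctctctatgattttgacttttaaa
Adam6a: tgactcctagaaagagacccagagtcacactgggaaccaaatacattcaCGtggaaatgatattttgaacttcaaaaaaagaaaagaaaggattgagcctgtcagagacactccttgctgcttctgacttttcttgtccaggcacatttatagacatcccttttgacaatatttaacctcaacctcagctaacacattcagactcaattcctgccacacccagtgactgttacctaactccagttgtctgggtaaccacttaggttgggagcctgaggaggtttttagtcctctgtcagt
Adam10: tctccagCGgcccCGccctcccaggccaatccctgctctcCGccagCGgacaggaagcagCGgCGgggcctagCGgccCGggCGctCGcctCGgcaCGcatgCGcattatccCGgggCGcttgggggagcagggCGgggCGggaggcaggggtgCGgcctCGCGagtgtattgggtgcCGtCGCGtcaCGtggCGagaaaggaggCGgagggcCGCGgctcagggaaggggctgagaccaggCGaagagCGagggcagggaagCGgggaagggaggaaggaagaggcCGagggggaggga
Adam17: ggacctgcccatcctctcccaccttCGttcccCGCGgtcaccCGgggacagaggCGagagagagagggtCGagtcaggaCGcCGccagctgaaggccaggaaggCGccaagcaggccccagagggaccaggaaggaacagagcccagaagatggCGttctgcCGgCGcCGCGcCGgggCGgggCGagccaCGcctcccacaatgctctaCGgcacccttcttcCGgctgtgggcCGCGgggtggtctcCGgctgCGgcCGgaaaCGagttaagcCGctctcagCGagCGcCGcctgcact
The windows are chr12:81568425-81568724 on the minus strand for Adam21, chr12:113543658-113543957 on the plus strand for Adam6a, chr9:70678732-70679031 on the plus strand for Adam10 and chr12:21373583-21373882 on the minus strand for Adam17. The window of Adam21 holds 0 CG pairs, that of Adam6a 1, that of Adam10 32 and that of Adam17 30. The letters TATAAA, searched on both strands, were in 3 of 10 testis windows (Adam6a, Adam6b and Adam29) and in 0 of 9 widely expressed windows, against 13.62% of all windows. The windows are not all separate sequences, since those of Adam6a and Adam6b share a long stretch that holds the match. Several of the widely expressed windows belong to Adam19. The cyclic AMP response element TGACGTCA was in none of the windows of either class and in 1.79% of all windows. Its shorter form TGACG was in 0 testis windows and in 1 widely expressed window, that of Adam10, against 20.81% of all. These are matches of letters in the given windows only.

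In Control the testis members spanned a 104-fold range of mean levels, and 4 of them made up most of the family's RNA. Adam5, a sperm membrane protein, was at 364, 402 and 377 FPKM, and Adam3, or cyritestin, which sperm need to pass the uterotubal junction in mice, was at 346, 366 and 345 FPKM. Adam32, another sperm membrane protein, was at 218, 228 and 212 FPKM, and Adam2, the beta subunit of fertilin, was at 194, 209 and 210.4 FPKM. The ranges of Adam5 and Adam3 overlapped, and those of Adam32 and Adam2 did not. These 4 gave 75.4% to 77.2% of the summed FPKM of the 20 testis members. Next were Adam18 with a mean of 62.6 ± 2.24 FPKM and Adam1b, the alpha subunit of fertilin on sperm, with 51.2 ± 1.77 FPKM (SD, n = 3 each). The other 14 testis members had means between 3.67 FPKM for Adam26b and 32.9 FPKM for Adam24. The 5 members with many coding exons had control means of 62.6 to 381 FPKM and lay above all 15 members with 1 coding exon, which had 3.67 to 51.2 FPKM.

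In ClpX cKO, testis ADAM genes were lower than in Control as a class. All 20 testis members were called lower, while 33.5% of all genes tested were called lower. The median change of the 20 was -1.19 on the log2 scale, against -0.00 over all genes tested, and single changes ran from -1.81 for Adam6b to -0.53 for Adam2. The 3 ClpX cKO values lay below the 3 Control values in 20 of 20 members, a pattern that 35.0% of all genes showed. The direction held under each scaling that was tried except for Adam2, which was at 0.05 with quantile normalization and was then not called. The summed FPKM of the 20 members was 954.6, 673 and 662 in ClpX cKO, against 1488, 1560.3 and 1489 in Control. Without ClpX cKO 1 the median was -1.44, without Control 3 it was -1.23, and 20 members were called in each case, while 34.5% and 31.5% of all genes were called lower.

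**Figure D1:**
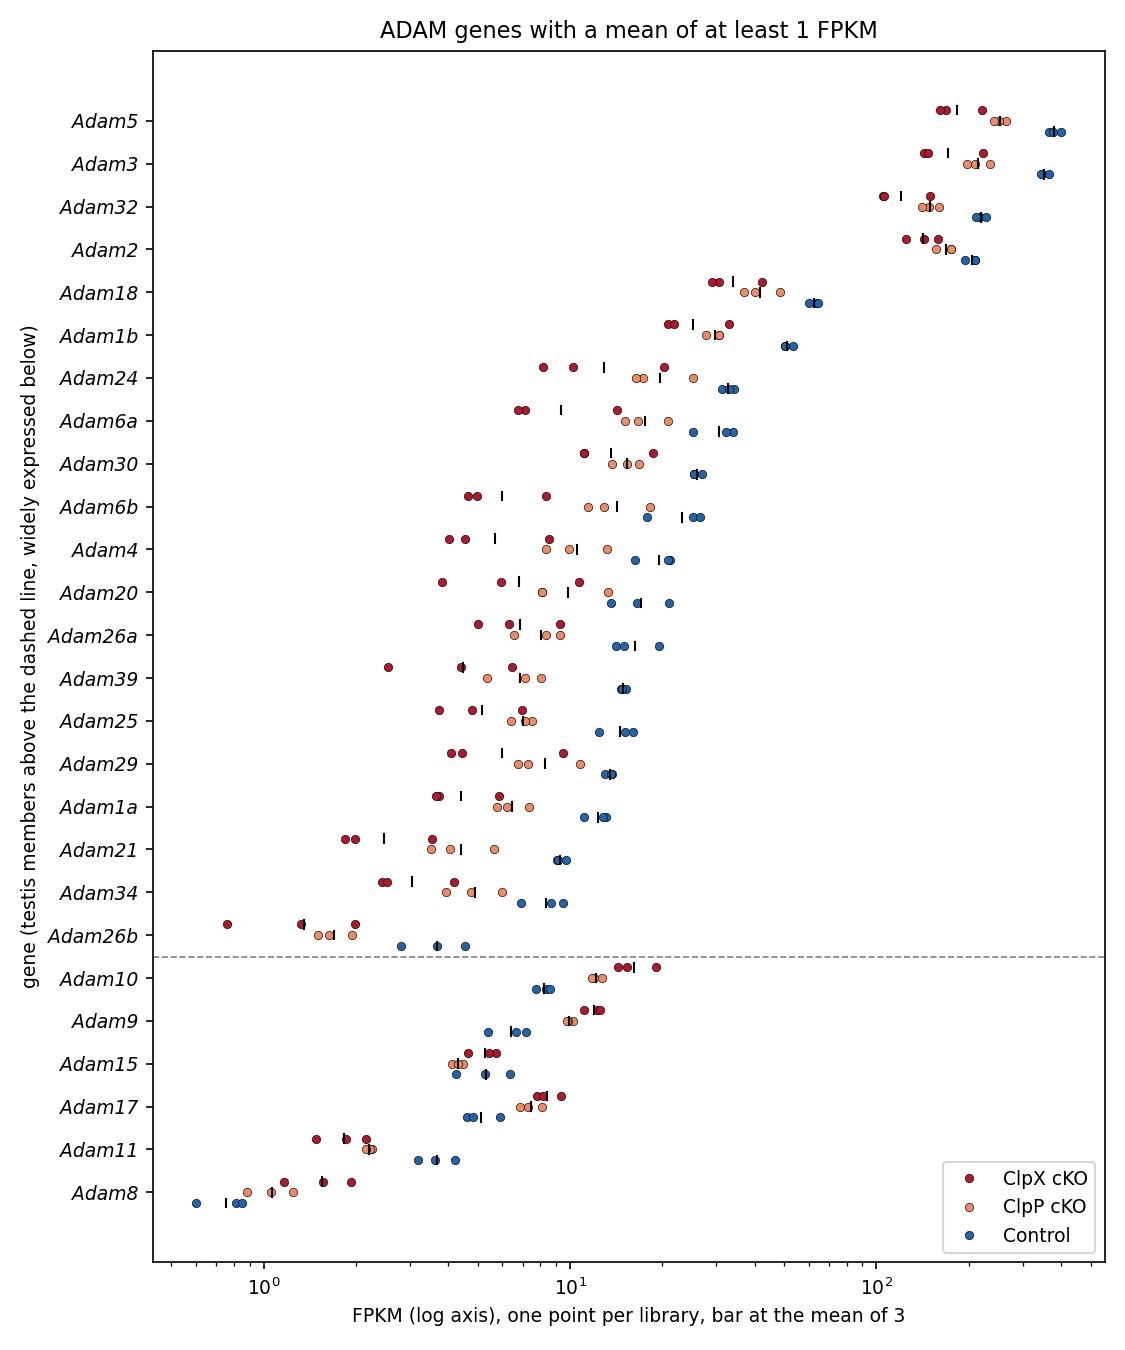
FPKM on a log axis of the 26 ADAM genes with a mean of at least 1 FPKM, 1 point per library and a bar at the mean of 3, for ClpX cKO, ClpP cKO and Control, with testis members above the dashed line. Testis members have their ClpX cKO points left of the Control points, whereas Adam10, Adam9 and Adam17 have them to the right.

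The abundant members of the sperm surface complexes fell by different amounts in ClpX cKO. Adam5 (ENSMUSG00000031554, chr8:24727093-24824369) had 220.3, 168 and 161 FPKM in ClpX cKO, against 364, 402 and 377 FPKM in Control. Adam3 (ENSMUSG00000031553, chr8:24677225-24725852) had 222, 143 and 147 FPKM in ClpX cKO, against 346, 366 and 345 FPKM in Control. Both were lower by about the same amount, -1.06 (SE 0.12, adjusted p = 4.5e-04) for Adam5 and -1.07 (SE 0.16, adjusted p = 7.6e-04) for Adam3 in limma, and for both ClpX cKO 1 was the highest knockout library. Adam2 (ENSMUSG00000022039, chr14:66027329-66077733) had 159, 143 and 124 FPKM in ClpX cKO, against 194, 209 and 210.4 FPKM in Control. Its change of -0.53 (SE 0.10, adjusted p = 0.0020 in limma) was the smallest among the testis members, although no ClpX cKO value reached a Control value. Adam32 and Adam18 both changed by -0.88, with adjusted p of 7.5e-04 and 0.0011 in limma.

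The genes of the partners of Adam2 in fertilin, Adam1a and Adam1b, also fell, with larger fitted decreases than Adam2 had. Adam1b (ENSMUSG00000062438, chr5:121500098-121503435) had 32.9, 20.9 and 21.9 FPKM in ClpX cKO, against 50.3, 50.2 and 53.3 FPKM in Control, a change of -1.02 (SE 0.15, adjusted p = 6.8e-04 in limma). Adam1a, the fertilin alpha form that stays in the endoplasmic reticulum of mouse germ cells and is needed there for Adam3 to reach the sperm surface, had 5.87, 3.72 and 3.65 FPKM in ClpX cKO, against 13.1, 12.8 and 11.1 FPKM in Control. Its change was -1.32 (SE 0.16, adjusted p = 4.6e-04 in limma). Adam1a and Adam1b share sequence, and 51.9% of the 50-base stretches of the Adam1a transcript and 32.4% of those of Adam1b also occur in other transcripts. How the authors' counting split such reads is not given in the sources used here, so the levels of each are uncertain. Adam1a and Adam1b overlap Tmem116 on the opposite strand, which had a mean of 5.39 FPKM over the 9 libraries. Without a stated strand setting, reads in the overlap cannot be told apart. Adam1a also overlaps Mapkapk5 on the same strand, which had a mean of 1.47 FPKM.

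Members with 1 coding exon included the largest decreases in ClpX cKO. Adam6b (ENSMUSG00000051804, chr12:113489511-113492057) had 8.32, 4.64 and 4.97 FPKM in ClpX cKO, against 25.2, 26.5 and 17.8 FPKM in Control. Its near copy Adam6a (ENSMUSG00000043945, chr12:113543908-113546465) had 14.2, 7.12 and 6.74 FPKM in ClpX cKO, against 34.0, 32.3 and 25.3 FPKM in Control. These 2 genes lie within the immunoglobulin heavy chain locus and are needed for male fertility in mice. The changes were -1.81 (SE 0.24, adjusted p = 5.1e-04) for Adam6b and -1.67 (SE 0.25, adjusted p = 7.6e-04) for Adam6a in limma. Adam4, another ADAM protein of mouse sperm, had 8.51, 4.02 and 4.54 FPKM in ClpX cKO, against 21.3, 20.9 and 16.3 FPKM in Control. In all 3 genes Control 3 was the lowest Control library and ClpX cKO 1 the highest knockout library, and the groups did not overlap. Adam21 and Adam39 followed with changes of -1.60 and -1.61, and Adam24, or testase 1, had a change of -1.38.

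In ClpP cKO, testis ADAM genes were also lower than in Control as a class, with exceptions. Both knockouts were set against the same Control libraries. Of the 20 testis members 16 were called lower and 0 higher, while 24.0% of all genes tested were called lower. The median change of the 20 was -0.75, against 0.01 over all genes. All 3 ClpP cKO values lay below all 3 Control values in 19 of 20 members, against 30.5% of all genes, and the exception was Adam6b. The members that were not called were Adam2 with -0.28 (adjusted p = 0.051), Adam24 with -0.74 (adjusted p = 0.063), Adam29 with -0.67 (adjusted p = 0.068) and Adam20 with -0.75 (adjusted p = 0.084) in limma. All 20 had an unadjusted p under 0.05, as did 54.5% of all genes. The number called was 10 with quantile normalization, against 16.0% of all genes, where Adam5 was at 0.02 and Adam2 at 0.18. It was 9 without ClpP cKO 2 and 8 without ClpP cKO 3, against 11.7% and 13.1% of all genes. It was 15 without Control 3 and 20 without both Control 3 and ClpX cKO 1, against 20.1% and 26.0% of all genes.

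Among the abundant members in ClpP cKO, Adam5 had 265, 251 and 242 FPKM, against 364, 402 and 377 FPKM in Control. The change of Adam5 was -0.59 (SE 0.12, adjusted p = 0.0099 in limma), and it was 0.02 and not called with quantile normalization. Adam3 had 235, 209 and 197 FPKM in ClpP cKO, against 346, 366 and 345 FPKM in Control, a change of -0.72 (SE 0.16, adjusted p = 0.012 in limma). With quantile normalization Adam3 was at -0.18, Adam32 at -0.10 and Adam18 at -0.27, and none of these was then called. Adam2 had 175, 175 and 157 FPKM in ClpP cKO, against 194, 209 and 210.4 FPKM in Control. The groups of Adam2 did not overlap, but its 95% interval in the fit, -0.50 to -0.05, came near 0. The largest decrease was that of Adam39, which had 8.05, 5.34 and 7.13 FPKM in ClpP cKO, against 15.2, 14.7 and 14.8 FPKM in Control. Its change was -1.03 (SE 0.24, adjusted p = 0.013 in limma). Adam25, or testase 2, which changed by -0.95, and Adam26a, or testase 3, which changed by -0.93, were next with Adam21 at -0.95.

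Some of these rows share sequence with near copies. Adam20, Adam25 and Adam39 share 34.2% to 36.1% of their 50-base stretches with other transcripts, mainly each other's. For Adam26a and Adam26b the share is 36.4% and 36.7%, for Adam34 30.3%, for Adam6a and Adam6b 29.5% and 29.6%, and for Adam4 17.4%. The 9 testis members that share no 50-base stretch are Adam2, Adam3, Adam5, Adam18, Adam21, Adam24, Adam29, Adam30 and Adam32. Of these 9, all 9 were called lower in ClpX cKO and 6 in ClpP cKO, with medians of -1.06 in ClpX cKO and -0.67 in ClpP cKO. Adam34 also overlaps the antisense row Gm45488, which had a mean of 9.12 FPKM over the 9 libraries, and without a stated strand setting reads of the 2 cannot be told apart. Adam4 overlaps Cox16 on the same strand, which had a mean of 2.30 FPKM.

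**Figure D2:**
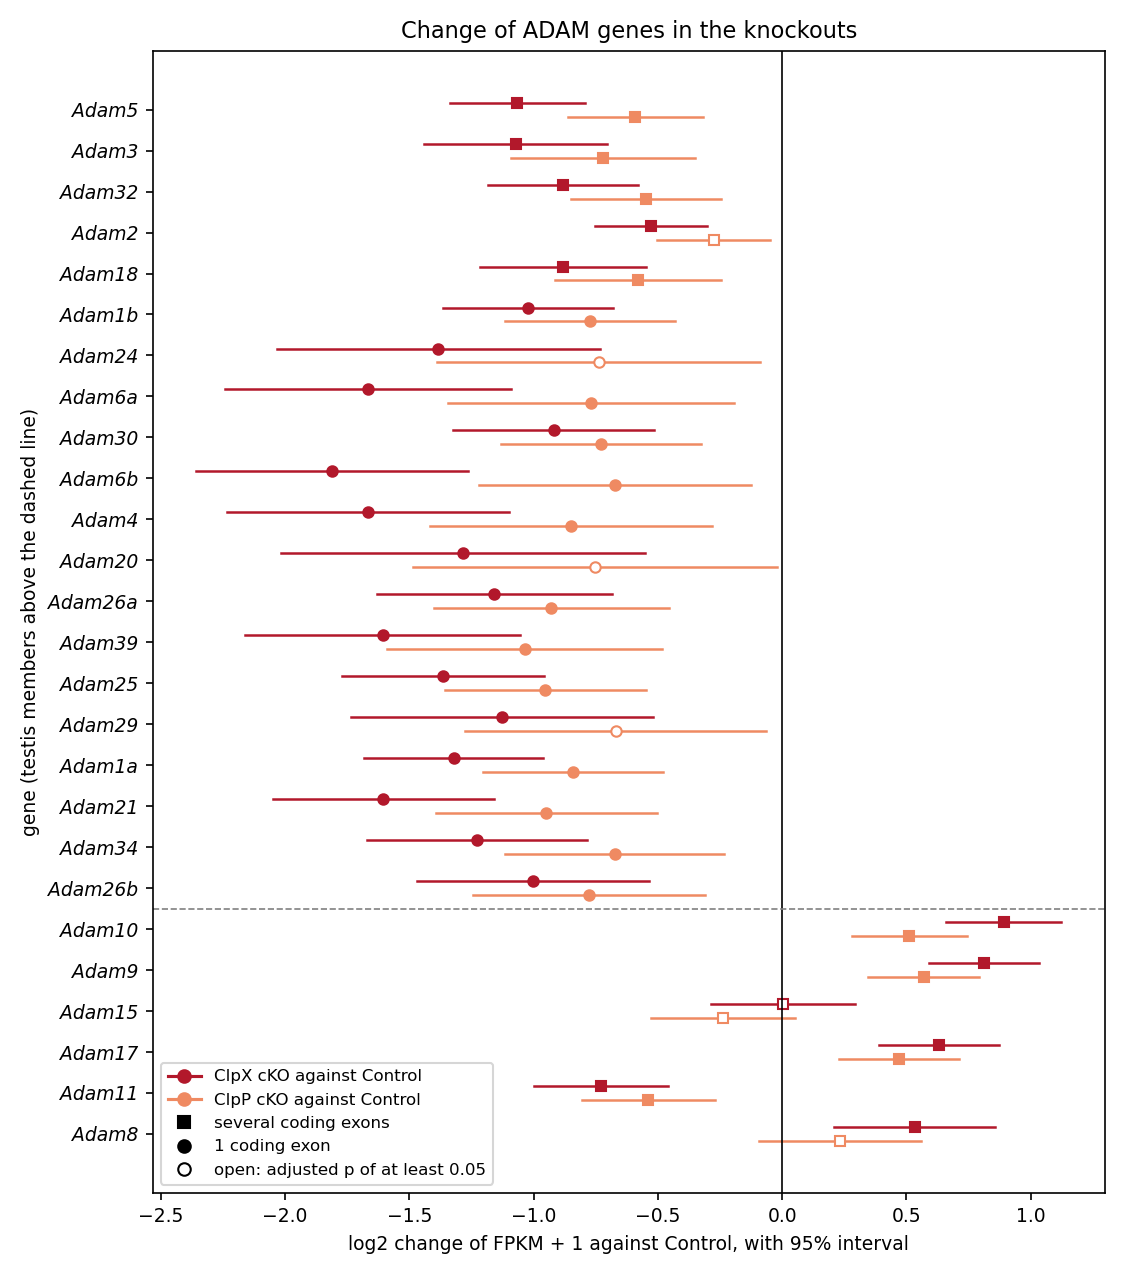
Change in log2(FPKM + 1) against Control with its 95% interval for the 26 tested ADAM genes, ClpX cKO above ClpP cKO for each gene, with open symbols where the adjusted p was at least 0.05. The 20 testis members lie left of 0 in both knockouts, although with quantile normalization Adam2 in both and Adam5 in ClpP cKO lay right of 0.

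The direct comparison of the knockouts called no ADAM gene. In ClpX cKO against ClpP cKO 0 of 26 members passed the test in limma. Of all genes tested 0.0579% were called lower and 0.0463% higher in that fit. An unadjusted p under 0.05 was found for 13 of the 26 members and for 27.8% of all genes. Limma voom on the recovered reads called 4 members, while it called 2.36% of all genes lower and 2.44% higher. The median change of the 20 testis members was -0.47, against -0.01 over all genes, and the largest was -1.14 for Adam6b, with a 95% interval of -1.68 to -0.59 and an adjusted p of 0.081 in limma. In 3 testis members (Adam5, Adam6a and Adam6b) all ClpX cKO values lay below all ClpP cKO values, a pattern of 14.9% of all genes. These 3 were also called lower by voom, and Adam10 was called higher.

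The count between the knockouts changed most when ClpX cKO 1 was left out. It was the highest ClpX cKO library in 20 of 20 testis members, at 1.19 times (Adam2) to 2.22 times (Adam29) the mean of ClpX cKO 2 and 3, with a median of 1.68. ClpX cKO 2 and 3 both lay below all ClpP cKO values in 20 of 20 members, a pattern that 30.6% of all genes showed and that was counted after ClpX cKO 1 had been seen to stand apart. Without ClpX cKO 1, 18 testis members were called lower, while 15.6% of all genes were, and Adam10 was called higher, while 11.9% of all genes were. Adam6b was then at -1.37 and Adam6a at -1.21, and only Adam26a and Adam26b were not called among the testis members. Without both Control 3 and ClpX cKO 1, 18 testis members were again lower, against 17.2% of all genes, and Adam10 and Adam9 were higher, against 12.6%. Without Control 3, Adam6b alone was called, while 2.03% of all genes were called lower. In ClpP cKO the library of replicate 1 was the highest of its group in 18 of 20 testis members.

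Control 3 did not move the testis members together. Its level relative to the mean of Control 1 and 2 ran from 0.689 for Adam6b to 1.40 for Adam26b. In 5 members (Adam4, Adam6a, Adam6b, Adam20 and Adam34) it was under 0.8, and in Adam26a and Adam26b it was above 1.3. It was the lowest Control library in 8 members and the highest in 6. The same ratio was 0.463 for the summed elongating spermatid markers and 0.926 for the summed round spermatid markers. Relative to their means, Adam4, Adam6a and Adam6b spread more among Control libraries than Adam3, Adam5 or Adam18.

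**Figure D3:**
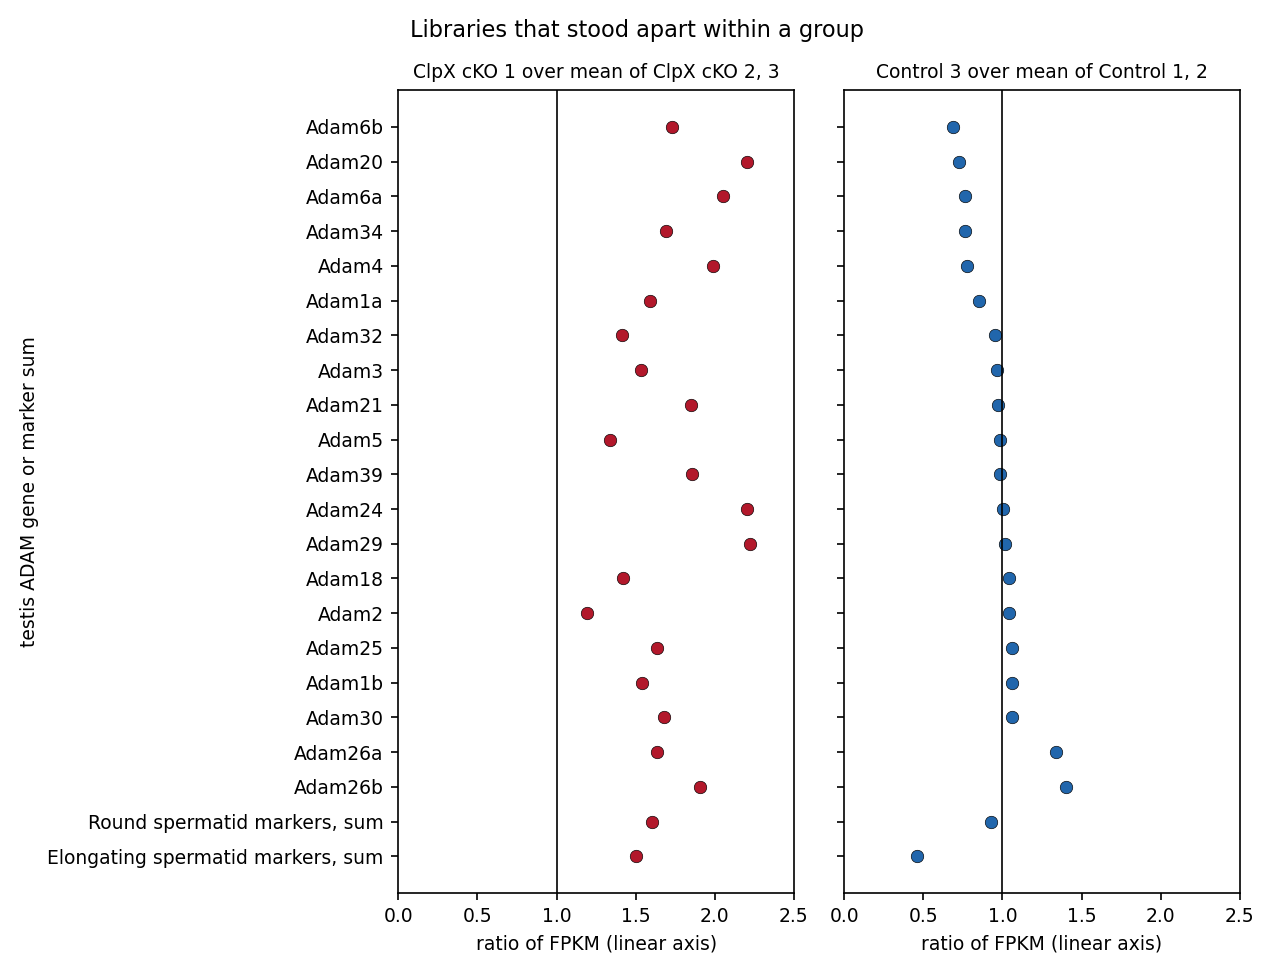
Ratio of FPKM in ClpX cKO 1 to the mean of ClpX cKO 2 and 3 (left) and in Control 3 to the mean of Control 1 and 2 (right) for the 20 testis members and 2 marker sums, on linear axes with a line at 1. All 20 members lie above 1 on the left, and on the right they lie on both sides of 1, between 0.689 and 1.40.

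Within the testis class, the median change went with gene structure, which was seen after the values were known and is given as a description. The 15 members with 1 coding exon had a median change of -1.32 in ClpX cKO and -0.77 in ClpP cKO. The 5 members with many coding exons had medians of -0.88 in ClpX cKO and -0.58 in ClpP cKO. Level and structure go together in these genes, since the 5 are also the most abundant in Control. The 11 members with the zinc-site codons had a median of -1.28 in ClpX cKO and -0.78 in ClpP cKO, and the 9 without them -1.07 in ClpX cKO and -0.67 in ClpP cKO. The shift in composition can be seen in the share of the 4 most abundant members, which was 78.7%, 83.0% and 81.3% of the summed testis FPKM in ClpX cKO, against 75.4%, 77.2% and 76.8% in Control.

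Spermatid markers moved with these genes. All 8 elongating spermatid markers were called lower in both knockouts, with medians of -2.61 in ClpX cKO and -1.34 in ClpP cKO. Of all genes tested 33.5% were called lower in ClpX cKO and 24.0% in ClpP cKO, with medians of -0.00 and 0.01. All 8 round spermatid markers were also called lower, with medians of -1.18 in ClpX cKO and -0.78 in ClpP cKO, beside the testis ADAM medians of -1.19 in ClpX cKO and -0.75 in ClpP cKO. Their summed FPKM was 300.2 to 508 in ClpX cKO, 462 to 575 in ClpP cKO and 879 to 959 in Control. Of 8 pachytene spermatocyte markers 6 were lower in each knockout, with medians of -0.69 in ClpX cKO and -0.45 in ClpP cKO. The exception in ClpX cKO was Sycp3 of the synaptonemal complex, the 1 marker of this list called higher there. It had 80.0, 84.5 and 82.0 FPKM in ClpX cKO, against 58.3, 66.5 and 72.6 FPKM in Control. Piwil1, a protein of the piRNA pathway, had 157, 193 and 126 FPKM in ClpX cKO, against 162, 158 and 173 FPKM in Control, and was not called. The part of these markers in the ADAM changes was not tested.

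The widely expressed members went the other way, with exceptions. Of the 12, 6 had a mean of at least 1 FPKM and were tested. In ClpX cKO 4 of them were called higher (Adam8, Adam9, Adam10 and Adam17) and 1 lower (Adam11), while 32.1% of all genes tested were called higher. In ClpP cKO 3 were called higher (Adam9, Adam10 and Adam17), against 20.7% of all genes, and Adam11 was again lower. Among the 12827 protein-coding genes tested, 5138 were called higher in ClpX cKO and 3306 in ClpP cKO. Their median changes were 0.11 in ClpX cKO and 0.08 in ClpP cKO. The summed FPKM of the 12 was 45.6, 47.1 and 52.4 in ClpX cKO, 40.1, 40.1 and 39.1 in ClpP cKO and 32.0, 30.9 and 32.6 in Control. Every knockout library lay above every Control library in this sum. The same 4 genes (Adam8, Adam9, Adam10 and Adam17) lay above Control in all 3 libraries of ClpX cKO and of ClpP cKO, patterns that 34.8% and 31.2% of all genes showed.

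Adam10, the protease that cuts Notch receptors and the amyloid precursor protein, had 14.3, 15.3 and 19.1 FPKM in ClpX cKO, 12.0, 11.8 and 12.7 FPKM in ClpP cKO and 8.34, 7.73 and 8.60 FPKM in Control. The 3 groups did not overlap. Its change was 0.89 (SE 0.10, adjusted p = 4.5e-04) in ClpX cKO and 0.51 (SE 0.10, adjusted p = 0.0097) in ClpP cKO in limma. Adam17, which releases tumour necrosis factor and ligands of the EGF receptor, had 7.82, 8.14 and 9.34 FPKM in ClpX cKO, 7.31, 8.10 and 6.89 FPKM in ClpP cKO and 4.61, 4.80 and 5.91 FPKM in Control. It changed by 0.63 (SE 0.11, adjusted p = 0.0011) in ClpX cKO and by 0.47 (SE 0.11, adjusted p = 0.012) in ClpP cKO in limma, and both knockouts lay above Control in every library. Adam17 overlaps Iah1 on the opposite strand.

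Adam9, a protease found in many tissues, lies next to the testis cluster on chromosome 8 and had 11.1, 12.3 and 12.5 FPKM in ClpX cKO, 10.2, 9.86 and 9.78 FPKM in ClpP cKO and 7.18, 6.67 and 5.38 FPKM in Control. Its change was 0.81 (SE 0.10, adjusted p = 4.6e-04) in ClpX cKO and 0.57 (SE 0.10, adjusted p = 0.0086) in ClpP cKO in limma, with no overlap between the 3 groups. The cluster runs over chr8:24602246-25016927 in the order Adam18, Adam3, Adam5, Adam32 and Adam9, all on the minus strand, with no other protein-coding row. The Adam32 and Adam9 rows are 806 bases apart, and Adam32 was called lower where Adam9 was called higher in both knockouts. With quantile normalization Adam32 in ClpP cKO was at -0.10 and not called. Of the 20 testis members 12 lie on chromosome 8, in this cluster, in a cluster of Adam24, Adam25, Adam20 and Adam39, in one of Adam26b, Adam26a and Adam34, and as Adam29 alone.

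The other tested members were low. Adam11, which lacks the zinc-site codons and is best known from the nervous system, had 2.16, 1.85 and 1.48 FPKM in ClpX cKO, 2.26, 2.22 and 2.16 FPKM in ClpP cKO and 3.62, 4.23 and 3.20 FPKM in Control. It fell in both, by 0.73 (SE 0.12, adjusted p = 0.0010) in ClpX cKO and by 0.54 (SE 0.12, adjusted p = 0.012) in ClpP cKO on the log2 scale in limma, so its direction was that of the testis class. Adam8, known from leukocytes, had 1.56, 1.93 and 1.16 FPKM in ClpX cKO, 1.25, 1.05 and 0.883 FPKM in ClpP cKO and 0.813, 0.847 and 0.601 FPKM in Control. Its change of 0.53 in ClpX cKO (SE 0.14, adjusted p = 0.010 in limma) was no longer called without both Control 3 and ClpX cKO 1, at 0.46, and its change of 0.23 in ClpP cKO was not called. Adam8 overlaps Gm16201 on the opposite strand, which had a mean of 1.51 FPKM over the 9 libraries, against 1.12 FPKM for Adam8. Without a stated strand setting their reads cannot be told apart. Adam15 had 5.74, 4.64 and 5.44 FPKM in ClpX cKO, 4.13, 4.46 and 4.29 FPKM in ClpP cKO and 5.28, 4.23 and 6.39 FPKM in Control. Both knockouts overlapped Control, while all ClpX cKO values lay above all ClpP cKO values. The 95% intervals of its changes were -0.29 to 0.29 in ClpX cKO and -0.53 to 0.05 in ClpP cKO.

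Markers of somatic cells were also higher in the knockouts, with the fewest calls among those of Leydig cells. Of all genes tested 32.1% were called higher in ClpX cKO and 20.7% in ClpP cKO. Of the 12827 protein-coding genes tested, 5138 were called higher in ClpX cKO and 3306 in ClpP cKO. All 8 Sertoli cell markers were called higher in both, with medians of 0.98 in ClpX cKO and 0.54 in ClpP cKO, and Wt1 had 15.8, 18.8 and 20.7 FPKM in ClpX cKO, 13.7, 13.3 and 14.3 FPKM in ClpP cKO and 9.56, 9.20 and 8.60 FPKM in Control. Of 5 tested immune markers 5 were higher in ClpX cKO and 3 in ClpP cKO, and the sum of 6 was 53.3 to 64.0 FPKM in ClpX cKO, 35.6 to 55.0 FPKM in ClpP cKO and 26.7 to 30.9 FPKM in Control. Of 6 peritubular and stromal markers 5 were higher in ClpX cKO and 2 in ClpP cKO, with sums of 83.2 to 128 FPKM in ClpX cKO, 71.8 to 91.8 FPKM in ClpP cKO and 53.0 to 78.1 FPKM in Control. Of 6 Leydig cell markers 2 were higher in ClpX cKO and 0 in ClpP cKO. In ClpP cKO 1 of them had an unadjusted p under 0.05, as did 54.5% of all genes. Among germ cells, 7 of 8 spermatogonium markers were higher in ClpX cKO and 5 in ClpP cKO, with medians of 0.69 in ClpX cKO and 0.43 in ClpP cKO. The remaining marker in ClpX cKO was Gfra1, a receptor of spermatogonial stem cells named here for its values, which was called lower, with a change of -0.34. The part of these markers in the levels of Adam8, Adam9, Adam10 and Adam17 was not tested.

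The remaining 7 members had a mean under 1 FPKM and were not tested. Adam23, a receptor-like protein without the zinc-site codons, had 0.862, 0.868 and 0.969 FPKM in ClpX cKO, 0.738, 0.477 and 0.545 FPKM in ClpP cKO and 0.433, 0.548 and 0.639 FPKM in Control. Its ClpX cKO values lay above the values of the other 2 groups. Adam12, Adam19, Adam22 and Adam33 were between 0.104 and 0.804 FPKM in every library. Adam22 had 0.438, 0.362 and 0.417 FPKM in ClpX cKO and 0.432, 0.340 and 0.281 FPKM in ClpP cKO. These lay below its Control values of 0.550, 0.443 and 0.552 FPKM. Adam12 and Adam33 lay above Control in every ClpP cKO library and overlapped it in ClpX cKO, and Adam19 overlapped it in both. Of the genes tested, 35.0% lay wholly below Control in ClpX cKO and 34.8% wholly above it. In ClpP cKO 30.5% lay wholly below Control and 31.2% wholly above it. In ClpX cKO against ClpP cKO 14.9% lay wholly above. Adam28 had 2 reads in Control 2 and 0 reads in the other 8 libraries, where a count of 0 allows up to 3 reads.

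Adam7, made by the epididymal epithelium and passed to sperm, had more than 2 reads in 2 of the 9 libraries. It had 0, 113 and 0 reads in ClpX cKO, 1, 0 and 2 reads in ClpP cKO and 0, 0 and 34 reads in Control. Crisp1, a secreted epididymal protein that was picked after its values were seen, had 1, 489 and 5 reads in ClpX cKO, 3, 23 and 0 reads in ClpP cKO and 2, 3 and 144 reads in Control. Both were therefore highest in ClpX cKO 2 and next highest in Control 3, and Spink8, picked in the same way, had 252 and 87 reads there and at most 25 elsewhere. Lcn5, an epididymal lipocalin, had 0 reads in all 9 libraries, and Lcn8 had at most 3. The summed FPKM of 6 epididymis markers was 2.89, 39.4 and 3.79 in ClpX cKO, 2.72, 3.11 and 2.53 in ClpP cKO and 3.60, 2.80 and 19.8 in Control. Without ClpX cKO 2 the 20 testis members were still called lower in ClpX cKO, with a median of -0.996, while 29.5% of all genes were called lower.

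**Figure D4:**
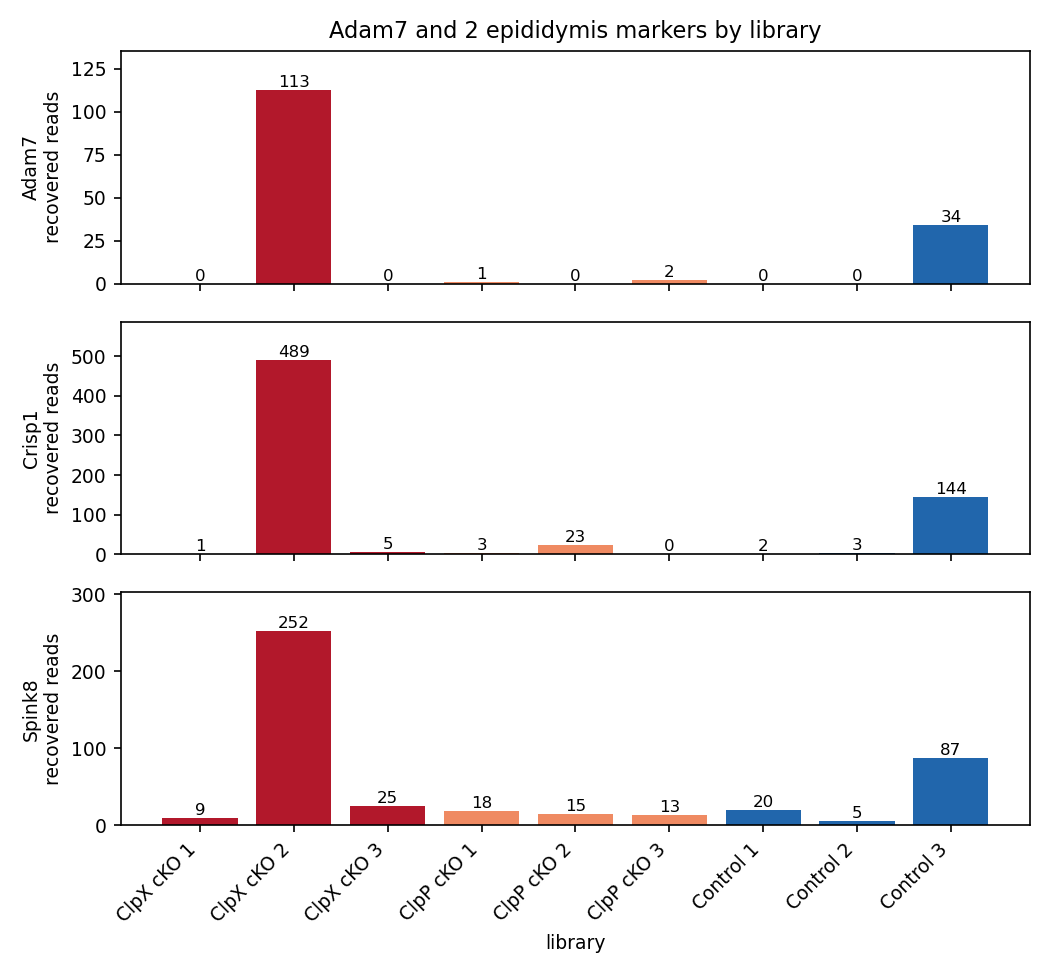
Reads recovered from FPKM and gene length for Adam7, Crisp1 and Spink8 in each library, on linear axes that start at 0. Each gene is highest in ClpX cKO 2 (113, 489 and 252 reads) and next in Control 3 (34, 144 and 87 reads).

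Genes known to be needed for the maturation of sperm ADAM proteins in mice were read beside the members. Of 12 such genes, all tested, 8 were called lower and 2 higher in each knockout, with medians of -0.96 in ClpX cKO and -0.73 in ClpP cKO. Over all genes tested the shares were 33.5% lower and 32.1% higher in ClpX cKO, and 24.0% lower and 20.7% higher in ClpP cKO. The lower genes were not all the same, since Clgn was called lower in ClpX cKO and missed the threshold in ClpP cKO, and Rnase10 the other way round. Neither was called between the knockouts, with adjusted p of 0.41 for Clgn and 0.40 for Rnase10 in limma. Rnase10 also stands among the epididymis markers and had 1.32, 0.888 and 1.48 FPKM in ClpP cKO, against 1.80, 2.16 and 4.19 FPKM in Control. Without Control 3 its change was -0.43 and not called (adjusted p = 0.071 in limma), against -0.69 with it. Prss37, a protease-like protein needed for Adam3 to be processed, had 24.4, 15.0 and 15.2 FPKM in ClpX cKO, 64.4, 39.1 and 50.5 FPKM in ClpP cKO and 120.3, 122 and 73.6 FPKM in Control. Its change was -2.47 (SE 0.27, adjusted p = 4.5e-04) in ClpX cKO and -1.01 (SE 0.27, adjusted p = 0.018) in ClpP cKO in limma. Calr3, a testis calreticulin needed for Adam3, changed by -1.78 in ClpX cKO and -0.92 in ClpP cKO, and Pmis2, which is also needed for Adam3 on sperm, by -1.77 in ClpX cKO and -1.11 in ClpP cKO. Cmtm2b, a membrane protein needed for Adam3 on sperm, changed by -0.96 in ClpX cKO and -0.77 in ClpP cKO. The genes that rose were Tpst2, a tyrosine sulfotransferase, by 0.70 in ClpX cKO and 0.73 in ClpP cKO, and Tex101, a germ-cell surface protein needed for Adam3 to reach sperm, by 0.49 in ClpX cKO and 0.33 in ClpP cKO. The list is therefore of mixed direction. Tex101, picked after its values were seen, had 169, 201 and 188 FPKM in ClpX cKO, 145, 183 and 171 FPKM in ClpP cKO and 132, 127 and 137 FPKM in Control.

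Regulators of ADAM shedding moved mostly with the widely expressed proteases. Of 18 genes 14 were tested, and 10 were called higher and 2 lower in ClpX cKO, and 8 higher and 2 lower in ClpP cKO. Of all genes tested 32.1% were called higher and 33.5% lower in ClpX cKO, and 20.7% higher and 24.0% lower in ClpP cKO. Of the 12827 protein-coding genes tested, 5138 were called higher and 3912 lower in ClpX cKO, and 3306 higher and 3017 lower in ClpP cKO. Rhbdf2, or iRhom2, the partner that carries Adam17 to the cell surface, had 4.51, 5.44 and 6.93 FPKM in ClpX cKO, 4.0, 4.21 and 3.82 FPKM in ClpP cKO and 2.05, 1.90 and 2.47 FPKM in Control. It changed by 1.07 (SE 0.13, adjusted p = 4.8e-04) in ClpX cKO and by 0.68 (SE 0.13, adjusted p = 0.0097) in ClpP cKO in limma. Timp2, an inhibitor of metalloproteases, had 77.4, 82.0 and 90.6 FPKM in ClpX cKO, 65.6, 57.6 and 62.1 FPKM in ClpP cKO and 45.1, 46.6 and 41.3 FPKM in Control, so the 3 groups did not overlap. The inhibitor Timp1 changed by 1.07 in ClpX cKO and by 0.34 in ClpP cKO, where it was not called (adjusted p = 0.089 in limma). Furin, which removes prodomains, changed by 1.11 in ClpX cKO and by 0.56 in ClpP cKO. Frmd8, which stabilises iRhom proteins, was lower in both, with changes of -0.37 in ClpX cKO and -0.28 in ClpP cKO. The other lower gene was Pcsk4, a convertase of germ cells, which was picked after its values were seen and changed by -0.70 in ClpX cKO and -0.34 in ClpP cKO. Inhibitors and activators of shedding are in the same list, and both kinds were among the genes called higher.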

How the data were processed

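RNA-seq of 9 mouse libraries was read from 1 table of FPKM that the authors deposited, with gene lengths of another unit (bases) per the file headers; the build is GRCm38 (mm10) per the submitters' processing notes. Aligner, counter and strand setting are not given in the sources used here. FPKM times length was a whole multiple of a step (tolerance 0.01) for 100% of values, so reads were recovered. The per-million denominator was 1.07 ± 0.0174 times a library's gene reads in ClpX cKO, 1.05 ± 0.0037 in ClpP cKO and 0.919 ± 0.028 in Control (SD, n = 3 each). Replicates of a group differed by more than sampling noise (chi-square 3.96 to 25.6 times its degrees of freedom). 

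Values of log2(FPKM + 1) were fitted with limma 3.58.1 (R 4.3.3, trended prior, 6 residual degrees of freedom) for 17266 genes, two-sided, and tested on simulated data. Fitted changes of low genes understate the change. Every member was named; companion lists gave up to 3 called genes with the smallest adjusted p in a comparison, and marker lists at most their first 2 genes as listed. The members, classes and lists were chosen with earlier results of these data known. Members' positions matched GENCODE M21 (33 of 33), and RefSeq promoters were matched by symbol (17 of 33). Shared 50-base stretches were counted exactly. Alternatives were a pseudocount of 0.1, no filter, scaling by own total, quantile normalization, a replicate block, leaving out libraries, and limma voom on the recovered reads. Python 3.11.15, pandas 2.3.3, Biopython 1.88 and matplotlib 3.10.9 were used.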

Additional observations from a re-analysis of the deposited data

How the results depend on the processing

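Testis members called lower in ClpX cKO against Control numbered 19 to 20 under every alternative, and no testis member was called higher in any comparison. In ClpP cKO against Control the count of 16 became 10 with quantile normalization and ran from 8 (without ClpP cKO 3) to 20 when 1 library was left out. In ClpX cKO against ClpP cKO the count of 0 became 3 with limma voom and 18 without both Control 3 and ClpX cKO 1, and ran from 0 to 18 when 1 library was left out. Widely expressed members called higher in that comparison numbered 1 with voom, 2 without both libraries, and 0 to 1 when 1 library was left out. Those called lower in ClpP cKO against Control were 1 to 2, with Adam15 added without Control 2.

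Changes that turned round were those of Adam5 (0.0172) and Adam2 (0.1763) in ClpP cKO and of Adam2 (0.0549) in ClpX cKO with quantile normalization, and of Adam15 in ClpX cKO, which was -0.1238 without Control 2, -0.0503 without ClpX cKO 1 and -0.0174 without ClpX cKO 3, and ran up to 0.1254 when 1 library was left out. The cause was not tested. Scaling by each library's own total moved the median of all genes to 0.18 in ClpX cKO and 0.16 in ClpP cKO, and voom moved it to 0.22 in ClpX cKO and 0.20 in ClpP cKO. The testis medians were then -0.998 in ClpX cKO and -0.57 in ClpP cKO with own totals, and -1.22 in ClpX cKO and -0.60 in ClpP cKO with voom. With own totals 7366 genes were called higher and 4265 lower in ClpX cKO, against 5548 and 5778 with the deposited FPKM, and 5992 and 2404 in ClpP cKO, against 3573 and 4149. With quantile normalization the counts were 6299 and 4689 in ClpX cKO and 3906 and 2769 in ClpP cKO.

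With the replicate number as a block, 20 testis members were lower in ClpX cKO, 19 in ClpP cKO and 0 between the knockouts. Same-numbered libraries deviated together with correlations of -0.0702 to 0.234, so the numbers were not taken as pairs. The lowest testis member, Adam26b, rests on 33 to 153 reads a library, and values of members under 1 FPKM are limited by depth.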
